A study of Mus musculus with 18 samples.

Results

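The fasting response of skeletal muscle was compared between mice without PGC-1β in muscle fibers and mice that kept it, gene by gene and pathway by pathway. The quantity reported is the difference between 2 responses on the log2 scale, MKO fasted minus MKO fed less WT fasted minus WT fed, called the contrast below. A positive contrast means that a gene went higher, or fell less, upon fasting in MKO than in WT muscle. All 18 of the 18 libraries entered: 5 MKO fasted, 5 MKO fed, 4 WT fasted and 4 WT fed. Genes were included when at least 4 libraries reached 0.5 TPM (a measure of the share of a library that a gene takes, corrected for its length), which left 12111 of 46983 genes. MKO mice carried a floxed Ppargc1b gene and Cre recombinase driven by the human skeletal actin promoter, so that the deletion was aimed at skeletal muscle fibers. WT mice carried the floxed gene without Cre. All were adult males of the C57Bl6/J strain, fed freely or deprived of food for 24 h. The sample labels name the quadriceps as the muscle and the methods of the study name the Gastrocnemius, while replicates are labelled as biological.

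PGC-1β, encoded by Ppargc1b, is a coactivator that binds transcription factors such as the estrogen-related receptors and raises genes of mitochondria and oxidative metabolism. Fasting turns muscle towards fatty acid use and protein breakdown. Insulin and IGF signaling falls, FoxO factors and the glucocorticoid receptor raise ubiquitin ligases, autophagy genes and PPAR targets, and protein synthesis is slowed. A contrast that passed its test marks a gene whose change with food withdrawal differed between the genotypes. Contrasts that did not pass are given as values only.

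Gene-level TPM of Ppargc1b were 1.03, 0.422, 1.11, 0.841 and 0.809 in MKO fasted muscle and 1.92, 1.76, 2.29, 2.35 and 2.34 in MKO fed muscle. They were 1.15, 1.12, 0.726 and 1.47 in WT fasted muscle and 2.05, 1.77, 1.45 and 1.56 in WT fed muscle. The genotypes overlapped in both states. A value for the whole gene also counts the exons that the deletion leaves in place, so it checks neither the deletion nor the genotype labels. The gene changed by −1.29 ± 0.20 in MKO and −0.60 ± 0.23 in WT muscle on the log2 scale (± is the standard error of limma throughout), and the contrast of −0.69 ± 0.30 did not pass (adjusted p = 0.509, limma with Benjamini-Hochberg adjustment over all 12111 genes).

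The library WT fasted replicate 4 stood apart. Transcripts of the mitochondrial genome took 81.28% of its TPM. That share was 61.45% to 67.93% in MKO fasted and 67.35% to 70.4% in MKO fed muscle, and 70.76% to 73.49% in the other WT fasted and 74.27% to 74.95% in WT fed libraries, and with TPM recomputed without these transcripts 10 genes had a called contrast, among them the 4 called as deposited. The summed TPM of 10 myofiber markers was 29200 in it, the lowest of all libraries, against up to 84600 in MKO fasted muscle. With all libraries set to a common median, all 11 slow fiber genes were higher in it than the mean of the other 3 WT fasted libraries, by a median of 2.29 on the log2 scale, and 17 of 19 fast fiber genes were lower. When limma estimated a weight for each library, this one received 0.107 and the others 0.595 to 2.28. The results are therefore given from 4 fits, namely the TPM as deposited, the TPM scaled to the same median, and each of these without WT fasted replicate 4. Myofiber markers were abundant in every group, as the label skeletal muscle requires, whereas summed TPM of 6 neutrophil markers stayed at or below 1.35 (Ly6g was at 0 in all libraries) and those of 6 T and B cell markers at or below 0.411. All values are shares of bulk RNA, in which fewer cells of a type and less RNA per cell cannot be told apart.

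Most of the fasting response was shared. As deposited, 4099 genes changed upon fasting in MKO muscle (33.8% of those tested) and 4353 in WT muscle (35.9%). Of the genes that changed in both, 2878 moved in the same direction and 6 in opposite directions. Across genes, which are not independent replicates, the MKO and WT responses correlated with r = 0.839 over 12111 genes. The response was the larger one in WT for 57.5% of all tested genes and for 66.4% of those that changed in the same direction in both genotypes. With scaled values and without WT fasted replicate 4 these shares were 62.5% and 73.9%. The plot of both responses shows this as a cloud tilted away from the line of equal responses.

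**Figure D1:**
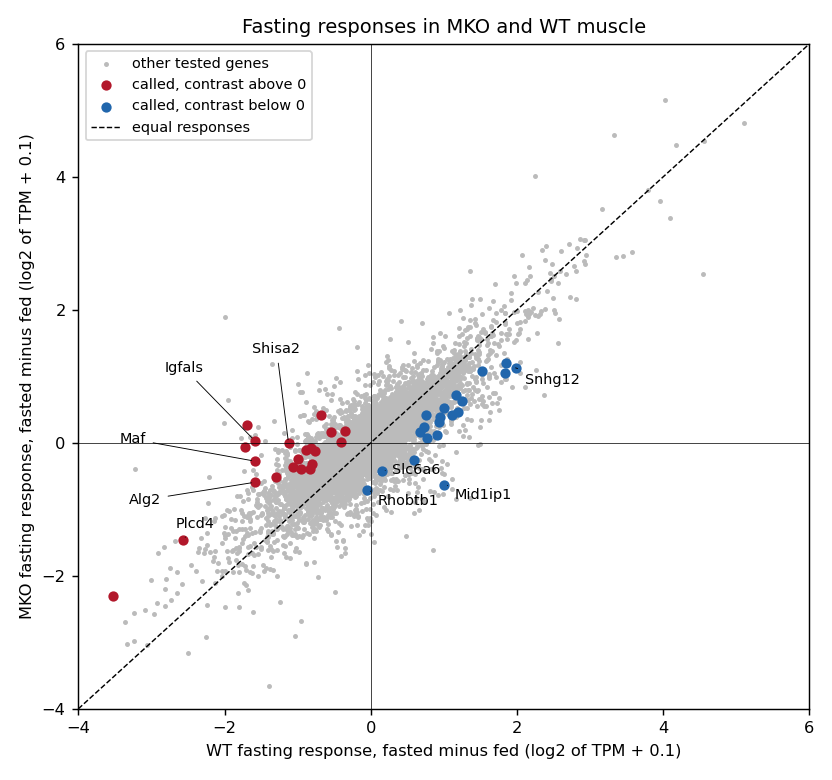
Fasting response in MKO muscle (vertical) against that in WT muscle (horizontal), each as fasted minus fed on the log2 scale of TPM + 0.1, as deposited. Each point is 1 of 12111 genes (2 lie outside the axes), the dashed line marks equal responses, and the colored points are the 41 genes called in at least 1 of the 4 fits. The 21 with a contrast above 0 lie on the side of a fall in WT, and 19 of the 20 below 0 on the side of a rise in WT.

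Few genes passed the test of the contrast after adjustment over all tested genes. At an adjusted p under 0.05, 4 genes had a higher contrast (0.033% of those tested) and 0 a lower one (0%) as deposited, where 1103 genes had an unadjusted p under 0.05. With scaling there were 11 higher (0.0908%) and 3 lower (0.0248%). Without WT fasted replicate 4 there were 8 higher (0.0661%) and 18 lower (0.149%), and with scaling and without this library 21 higher (0.173%) and 17 lower (0.14%). By unadjusted p the balance of directions over all genes turned with the setting, with 866 higher and 237 lower as deposited, 628 higher and 843 lower without WT fasted replicate 4, and 439 higher and 1122 lower with TPM recomputed without mitochondrial genes. In total 41 genes were called in at least 1 of the 4 fits, of which 4 were called in all 4, 6 in 3, 17 in 2 and 14 in 1. All 21 genes with a positive contrast had a smaller response in MKO than in WT muscle, where each of them was lower upon fasting. Of the 20 genes with a negative contrast, 18 had the smaller response in MKO as well. The exceptions were Slc6a6 and Rhobtb1, described below.

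**Figure D2:**
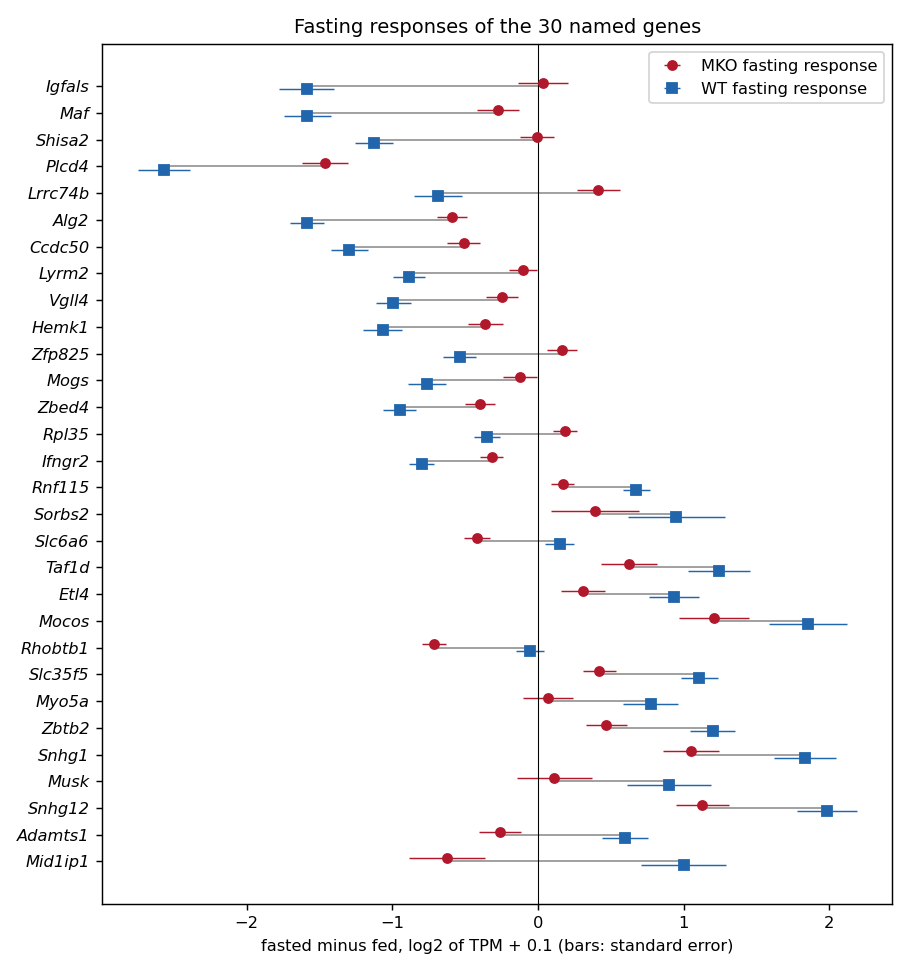
Fasting responses of the 15 genes with the highest and the 15 with the lowest contrast among the named genes called in at least 1 of the 4 fits. Circles are the MKO response and squares the WT response, as deposited, with the standard error of limma. For all 15 at the top the square lies left of the circle and below 0, and at the bottom it lies to the right, while Slc6a6 and Rhobtb1 have their larger response in MKO muscle.

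The 4 genes called in all 4 fits were Maf, Igfals, Shisa2 and Alg2, and each of them was lower upon fasting in WT muscle and changed less in MKO muscle. Maf (chr8:115682942-115707794, GRCm38, minus strand) encodes c-Maf, a transcription factor of the large Maf family that is needed for fast type IIb muscle fibers in the mouse. It stood at 36.6, 41.2, 44.6, 41.3 and 49 TPM in MKO fasted and 58.4, 61.1, 48.2, 38.1 and 54.0 TPM in MKO fed muscle. It stood at 25.7, 19.9, 19.5 and 13.3 TPM in WT fasted and 55.5, 60.8, 55.1 and 58.3 TPM in WT fed muscle. Every WT fasted library lay below every other library, while the fed groups overlapped. The response was −0.28 ± 0.15 in MKO (adjusted p = 0.151) and −1.58 ± 0.16 in WT muscle (adjusted p = 5.98e-07), and the contrast of 1.31 ± 0.22 passed (adjusted p = 0.0246, limma). In fasted muscle alone, Maf was higher in MKO than in WT by 1.15 ± 0.15 (adjusted p = 0.00015). The counting of reads is not stated to use strand, and an annotated antisense transcript overlaps Maf. Antisense transcripts also overlap Mid1ip1, Etl4, Sorbs2, Fbxo32 and Nos1, and other protein-coding genes overlap Plcd4, Rpl35, Taf1d and Rhobtb1, all described below.

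Igfals (chr17:24865997-24882010, plus strand) encodes the acid-labile subunit, which holds IGF and its binding protein in a stable complex in blood. It was a low gene in muscle, with 2.45, 2.17, 1.49, 1.71 and 2.04 TPM in MKO fasted and 2.21, 2.31, 1.73, 1.27 and 2.15 TPM in MKO fed muscle. In WT muscle it had 0.811, 0.59, 0.902 and 0.903 TPM upon fasting and 2.08, 2.64, 2.64 and 3.06 TPM when fed. The fasted WT libraries lay apart from all others, and the MKO groups overlapped. Its contrast of 1.62 ± 0.25 (adjusted p = 0.0169, limma) joined an MKO response of 0.03 ± 0.17 and a WT response of −1.59 ± 0.19.

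Shisa2 (chr14:59625308-59631660, plus strand) encodes a membrane protein of the endoplasmic reticulum that holds back Wnt and FGF receptors. Its TPM were 31.1, 32.3, 31.5, 28.3 and 31.9 in MKO fasted and 31.8, 35.7, 30.4, 26.8 and 31.4 in MKO fed muscle. They were 20.8, 18.9, 14.6 and 15.9 in WT fasted and 28.4, 42.5, 40.4 and 42.6 in WT fed muscle. Fasting thus separated the WT groups and left the MKO groups overlapping, with a contrast of 1.12 ± 0.18 (adjusted p = 0.0169, limma). The low value among fed WT libraries was that of replicate 1.

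Alg2 (chr4:47465067-47474333, minus strand) encodes a mannosyltransferase that builds the lipid-linked sugar chain used for N-glycosylation in the endoplasmic reticulum. Its TPM were 5.06, 4.20, 5.05, 4.94 and 4.70 in MKO fasted and 7.38, 8.01, 6.90, 6.62 and 7.46 in MKO fed muscle. They were 2.51, 2.86, 2.25 and 1.95 in WT fasted and 6.35, 7.92, 7.84 and 7.24 in WT fed muscle. The gene fell in both genotypes, by 0.59 on the log2 scale in MKO (standard error 0.10, adjusted p = 0.00021) and by 1.58 in WT (standard error 0.11, adjusted p = 5.56e-09), and the contrast was 0.99 ± 0.15 (adjusted p = 0.0169, limma). Over 30 other settings the contrasts of Maf, Igfals, Shisa2 and Alg2 kept their sign, and Maf was called in 19 of them and each of the other 3 in 24. Single libraries decided whether any gene was called, as 0 genes were called as deposited without MKO fasted replicate 5 or without WT fed replicate 2, 3 or 4, where the smallest adjusted p were 0.0506, 0.0719, 0.0626 and 0.0567 and 951, 907, 930 and 999 genes had an unadjusted p under 0.05.

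**Figure D3:**
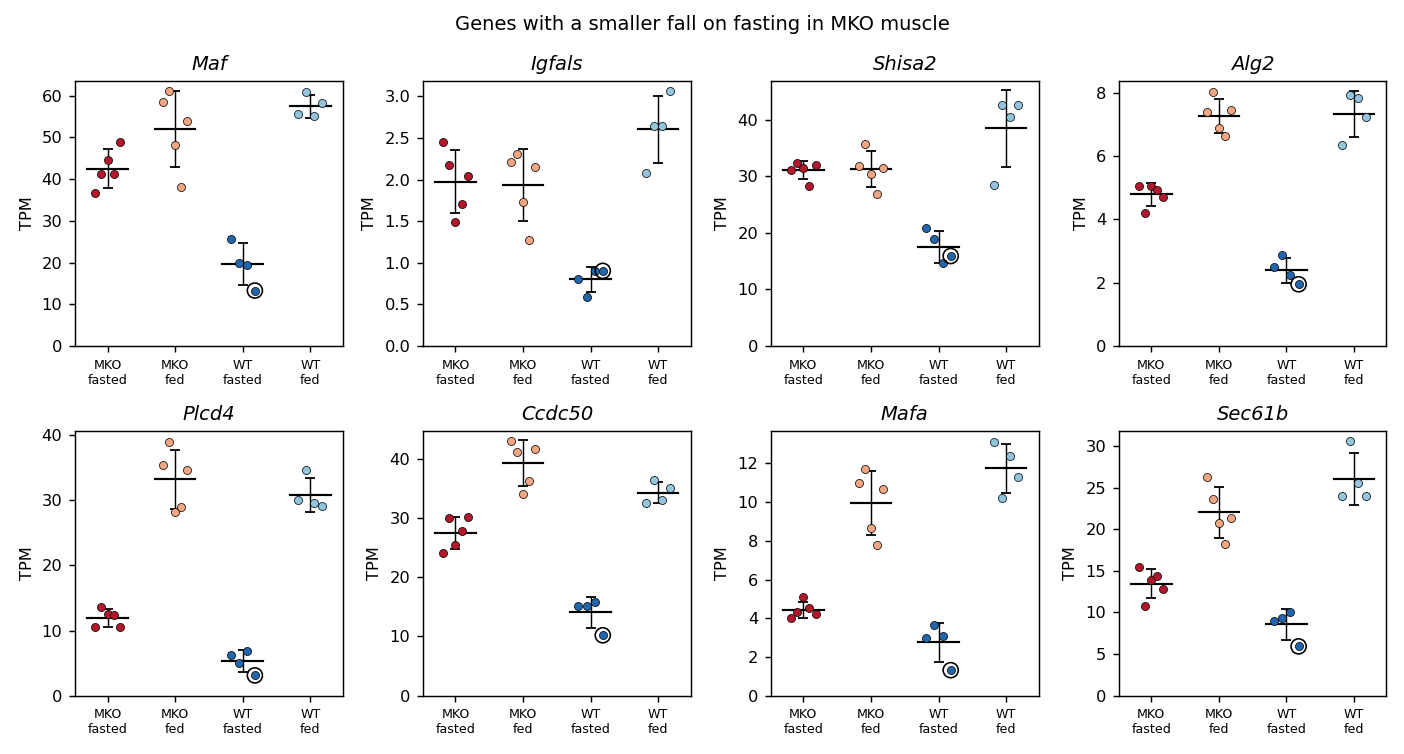
TPM per library of 8 genes with a positive contrast, by group. Points are libraries, the horizontal bar is the mean, the error bar 1 SD (n = 5 in each MKO and 4 in each WT group), and the open ring marks WT fasted replicate 4. WT fasted libraries lie lowest in every panel and below all MKO fasted libraries.

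Mafa, which encodes another factor of the large Maf family, was looked up after the values of Maf were seen and had a contrast of 0.997 ± 0.28 that did not pass the test (adjusted p = 0.265, limma). Mafa had 4.00 to 5.11 TPM in MKO fasted and 7.79 to 11.7 TPM in MKO fed muscle, against 1.32 to 3.65 TPM in WT fasted and 10.2 to 13.1 TPM in WT fed muscle. Myh4, the type IIb myosin gene whose expression depends on large Maf factors in the mouse, was looked up after these values were seen and had a contrast of 0.33 ± 0.36 (adjusted p = 0.842). With scaling and without WT fasted replicate 4 it had −0.02.

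Other genes of glycoprotein synthesis were looked up after the values of Alg2 were seen. Mogs, the glucosidase that trims the first glucose from new N-glycans, was called in 1 of the 4 fits, with a contrast of 0.64 ± 0.17 as deposited (adjusted p = 0.244). Alg14, a subunit of the enzyme of the second step of the lipid-linked chain, had 0.63 ± 0.15 (adjusted p = 0.189) and was called in none of the 4. On a list of 42 N-glycosylation genes, chosen in the same way, 3 had a positive contrast with an unadjusted p under 0.05 as deposited and 0 a negative one. That share of 7.14% is close to the background, since 7.15% of all tested genes were higher and 1.96% lower by this measure. The median of the list was 0.13, beside 0.06 for all tested genes.

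Alg2 has a head-to-head neighbor, Sec61b (chr4:47474658-47483242, plus strand), which encodes a subunit of the channel through which new proteins enter the endoplasmic reticulum. The 2 genes are 324 bases apart. Sec61b, chosen after its values were seen, had 15.5, 10.8, 13.9, 14.4 and 12.8 TPM in MKO fasted and 26.3, 23.6, 20.7, 18.2 and 21.3 TPM in MKO fed muscle. It had 8.93, 9.31, 10.1 and 5.93 TPM in WT fasted and 24.0, 30.6, 25.5 and 24.0 TPM in WT fed muscle, so that the groups were ordered as those of Alg2 were. Its contrast was 0.91 ± 0.21 and did not pass (adjusted p = 0.16, limma), with adjusted p of 0.0845 with scaling and without WT fasted replicate 4. The RefSeq promoter window of Sec61b (chr4:47474411-47474710, GRCm38.p6, plus strand) covers most of the stretch shared by the 2 genes. It is shown 5′ to 3′ with the annotated first 50 bases of Sec61b in capitals, and Alg2 begins on the other side of it.
Sec61b window: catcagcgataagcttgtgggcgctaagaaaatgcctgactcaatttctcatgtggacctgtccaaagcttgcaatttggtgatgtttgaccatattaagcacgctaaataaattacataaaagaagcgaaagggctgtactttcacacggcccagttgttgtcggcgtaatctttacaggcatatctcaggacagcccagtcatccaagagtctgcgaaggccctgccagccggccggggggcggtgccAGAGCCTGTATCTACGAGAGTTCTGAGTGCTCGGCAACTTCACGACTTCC
The window held none of 5 motifs searched on both strands, TGGAAA (the NFAT core), AAGGTCA (a binding site of estrogen-related receptors), CACGTG (an E-box), CCAAT and TGACG (the core of cAMP and ATF6 sites). Of 32851 RefSeq windows of this length, 21.4% held TGGAAA, 4.72% AAGGTCA, 7.15% CACGTG, 37.4% CCAAT and 20.8% TGACG. Among the 15 genes with the highest contrast, 13 had a window, of which 1 held TGGAAA, 0 AAGGTCA, 1 CACGTG, 6 CCAAT and 2 TGACG. Among the 15 with the lowest contrast, 13 had a window, of which 2 held TGGAAA, 0 AAGGTCA, 0 CACGTG, 2 CCAAT and 3 TGACG. A match only says that these letters occur in the window.

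Plcd4 and Ccdc50 were called in 3 of the 4 fits. Plcd4 (chr1:74542888-74567794) encodes phospholipase C delta 4, which cleaves phosphoinositides. It had 10.6, 13.6, 12.5, 12.4 and 10.6 TPM in MKO fasted and 35.5, 38.9, 28.2, 29.0 and 34.7 TPM in MKO fed muscle, against 6.24, 5.08, 6.85 and 3.12 TPM in WT fasted and 30, 34.6, 29.6 and 29.1 TPM in WT fed muscle. The fed groups overlapped and the fasted groups did not. It fell in both genotypes, with responses of −1.46 ± 0.16 in MKO and −2.57 ± 0.18 in WT muscle and a contrast of 1.10 ± 0.24 (adjusted p = 0.149 as deposited and 0.0357 with scaling and without WT fasted replicate 4). Ccdc50 (chr16:27388869-27452218), a ubiquitin-binding protein of growth factor receptor signaling, had 24.1 to 30.1 TPM in MKO fasted and 34 to 42.9 TPM in MKO fed muscle. It had 10.2 to 15.9 TPM in WT fasted and 32.6 to 36.4 TPM in WT fed muscle. Its contrast was 0.79 ± 0.17 (adjusted p = 0.149 as deposited and 0.0357 with scaling and without that library).

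The other genes of the 15 highest contrasts had responses in WT of −0.35 to −1.07 and were called in 1 or 2 of the 4 fits. Lyrm2 (contrast 0.78 ± 0.15), a LYR-motif protein of mitochondria, and Vgll4 (0.75 ± 0.16), a cofactor of TEAD transcription factors, were called in 2. Lrrc74b (1.10 ± 0.22), Hemk1 (0.71 ± 0.18), the methyltransferase of mitochondrial release factors, and Ifngr2 (0.48 ± 0.12), a chain of the interferon gamma receptor, were called in 1. Lrrc74b, Zfp825 and Rpl35 had responses of opposite sign in the 2 genotypes. Lrrc74b rose by 0.41 ± 0.15 in MKO (adjusted p = 0.0338) and had −0.68 ± 0.16 in WT muscle (adjusted p = 0.00287). The MKO responses of Zfp825 and Rpl35, 0.16 ± 0.10 and 0.19 ± 0.08, did not pass.

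A predicted gene of the immunity-related GTPase family, Gm4841, was called in 3 of the 4 fits. It had 109, 115, 76.6, 103 and 92.2 TPM in MKO fasted and 110, 105, 104, 80.7 and 115 TPM in MKO fed muscle. In WT muscle it had 45.8, 31.9, 48.6 and 15.7 TPM upon fasting and 78.0, 134, 114 and 112 TPM when fed. The contrast was 1.66 ± 0.34 (adjusted p = 0.13 as deposited and 0.0213 with scaling and without WT fasted replicate 4). The relatives BC023105 and Iigp1, chosen after their values were seen, had contrasts of 1.78 ± 0.42 (adjusted p = 0.189) and 1.26 ± 0.34 (adjusted p = 0.244), and BC023105 is annotated as a processed pseudogene. On a list of this family, chosen as a whole after the values were seen, all 7 measured members had a contrast above the median of all genes, and 5 (71.4%) were higher with an unadjusted p under 0.05 as deposited, where 7.15% of all genes were. The list counts Gm4841 itself, whose values were already seen, so these shares are no separate evidence on the family. Its members lie in clusters of near-identical copies between which reads could have been split, so the value of each is uncertain. They are therefore not separate observations. The list of interferon and MHC class I genes did not share the pattern, with a median of −0.01 over 40 genes and −0.03 with scaling and without WT fasted replicate 4.

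Most genes with a negative contrast were higher upon fasting in WT muscle and moved less, or down, in MKO muscle. Slc35f5 (chr1:125560595-125595820), a solute carrier, had 11.4, 11.5, 11.4, 10.5 and 14.8 TPM in MKO fasted and 8.13, 8.19, 7.91, 10.1 and 10.1 TPM in MKO fed muscle. It had 19.3, 19.4, 17.6 and 14 TPM in WT fasted and 7.57, 8.30, 7.76 and 8.55 TPM in WT fed muscle. It rose in both genotypes, by 0.42 ± 0.11 in MKO and 1.11 ± 0.12 in WT, and was called in 3 of the 4 fits with a contrast of −0.69 ± 0.17 (adjusted p = 0.197 as deposited and 0.0357 with scaling and without WT fasted replicate 4). Zbtb2 (chr10:4367075-4388108, minus strand), a zinc finger transcription factor, was also called in 3 fits. Its values were 3.05, 3.44, 3.17, 2.60 and 2.95 TPM in MKO fasted and 1.80, 2.10, 2.32, 2.50 and 2.15 TPM in MKO fed muscle, against 4.78, 4.76, 4.72 and 2.79 TPM in WT fasted and 1.93, 1.48, 1.69 and 1.97 TPM in WT fed muscle. The WT fasted libraries other than replicate 4 lay above all others. The contrast was −0.73 ± 0.21 (adjusted p = 0.272) as deposited and −0.86 (adjusted p = 0.0153, limma) with scaling and without replicate 4.

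Mid1ip1 (chrX:10715013-10719690) had the lowest contrast of the named genes, −1.63 ± 0.39, and was called in 2 of the 4 fits. Its product binds acetyl-CoA carboxylase and promotes its activity in fatty acid synthesis. It had 6.58, 5.62, 6.96, 4.81 and 4.84 TPM in MKO fasted and 5.29, 5.33, 13.5, 12.1 and 11.7 TPM in MKO fed muscle, against 11.2, 11.9, 16.3 and 6.07 TPM in WT fasted and 5.56, 5.11, 4.72 and 5.89 TPM in WT fed muscle. MKO fed libraries split into a pair near the fed WT level and 3 at the fasted WT level. The MKO response of −0.63 ± 0.26 did not pass (adjusted p = 0.0709), while the WT response of 1.0 ± 0.29 did (adjusted p = 0.0114). Sterol and fatty acid synthesis as a list lay close to all tested genes, with a median contrast of 0.05 over 41 genes beside 0.06.

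Hosts of small nucleolar RNAs, whose introns carry guides for the modification of ribosomal RNA, made up 4 of the 20 called genes with a negative contrast. A list of such hosts, chosen after the values were seen, held 13 of the 12111 tested genes. Snhg12 (chr4:132308623-132311024) had 3.95, 4.77, 4.52, 4.02 and 4.41 TPM in MKO fasted and 1.90, 2.05, 2.18, 1.65 and 1.87 TPM in MKO fed muscle. It had 6.19, 6.64, 6.51 and 2.7 TPM in WT fasted and 1.07, 1.26, 1.52 and 1.15 TPM in WT fed muscle. Fasting raised it in both genotypes, by 1.13 ± 0.18 in MKO and 1.98 ± 0.20 in WT muscle. The contrast was −0.85 ± 0.27 (adjusted p = 0.354) as deposited and −1.10 (adjusted p = 0.0119, limma) with scaling and without WT fasted replicate 4, the library with the lowest value of its group. Snhg1 and Taf1d were called in 2 of the 4 fits and Snhg5 in 1, with contrasts of −0.78 ± 0.29, −0.62 ± 0.29 and −0.45 ± 0.33 as deposited. On the list of 13 measured host genes, 3 (23.1%) were lower by unadjusted p as deposited, where 1.96% of all genes were lower and 7.15% higher. With scaling and without WT fasted replicate 4, 5 hosts (38.5%) were lower, where 5.57% of all genes were lower and 8.28% higher. In both fits 0 hosts were higher. The median contrast of the list was −0.15 and −0.30 in these fits. The 3 were Snhg12, Snhg1 and Taf1d, and the 5 included them and Snhg5. The list was chosen with these called genes already seen, so its shares are no separate evidence on the class. Snhg6, in the same class, had 0.34 ± 0.24.

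Host genes of this kind and ribosomal protein genes are known to begin with a run of pyrimidines that ties their translation to nutrient signaling. The stretches around the annotated starts (10 bases before to 30 after, RefSeq, GRCm38.p6) are shown 5′ to 3′ because the hosts and Rpl35 had contrasts of opposite sign, with any run of at least 5 pyrimidines that begins within 10 bases of the start in capitals.
Snhg12 (chr4:132308668-132308707, plus strand): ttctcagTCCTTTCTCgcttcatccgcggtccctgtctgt
Snhg1 (chr19:8723477-8723516, plus strand): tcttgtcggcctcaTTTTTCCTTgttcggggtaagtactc
Snhg5 (chr9:88522868-88522907, minus strand): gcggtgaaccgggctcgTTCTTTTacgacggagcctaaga
Taf1d (chr9:15306204-15306243, plus strand): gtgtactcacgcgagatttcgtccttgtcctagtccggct
Rpl35 (chr2:39005102-39005141, minus strand): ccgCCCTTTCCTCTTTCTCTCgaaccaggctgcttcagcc
Rpl35 and Snhg12 carried a run across the start, of 18 and 9 pyrimidines, Snhg1 and Snhg5 carried runs of 9 and 7 that began 4 and 7 bases after it, and Taf1d held none that began within 10 bases of it. Such a run stood in 38% of all 32851 windows.

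Synaptic, cytoskeletal and other genes formed the rest of the negative contrasts. Musk, the receptor kinase that organizes the neuromuscular junction, had 3.61 to 6.34 TPM in MKO fasted and 4.07 to 5.16 TPM in MKO fed muscle, against 12.4, 11, 20.3 and 4.36 TPM in WT fasted and 4.87 to 6.47 TPM in WT fed muscle. The WT fasted libraries other than replicate 4 stood above all others. Its contrast was −0.79 ± 0.39 (adjusted p = 0.561) as deposited and passed only without that library and without scaling (adjusted p = 0.0486, limma). Etl4 (chr2:19909780-20810713) behaved likewise, with 6.77 to 8.55 TPM in MKO fasted and 5.58 to 6.24 TPM in MKO fed muscle, against 12, 13.5, 11.4 and 5.92 TPM in WT fasted and 5.10 to 5.64 TPM in WT fed muscle. It was called in both fits without WT fasted replicate 4 (adjusted p = 0.0031 and 0.0119 with scaling). Adamts1, an extracellular protease, Myo5a, a myosin motor of vesicle transport, Sorbs2, an adaptor of the Z-disc, and Mocos, the sulfurase of the molybdenum cofactor, had contrasts of −0.86 ± 0.21, −0.71 ± 0.25, −0.56 ± 0.45 and −0.65 ± 0.36 and were called in 1 or 2 of the 4 fits.

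Rnf115 (chr3:96727664-96791638), a RING ubiquitin ligase, rose only in WT muscle by its own tests. It had 37.7, 35.6, 35.6, 36.0 and 41.8 TPM in MKO fasted and 31.3, 31.8, 38.3, 33.1 and 31.6 TPM in MKO fed muscle, against 54.1, 56.4, 60.9 and 50.3 TPM in WT fasted and 32.6, 35.3, 33.8 and 36.8 TPM in WT fed muscle. Every WT fasted library, replicate 4 included, exceeded every other. The contrast of −0.51 ± 0.12 was called in 1 of the 4 fits (adjusted p = 0.189 as deposited, 0.0408 without WT fasted replicate 4 and 0.0955 with scaling in addition). The MKO response of 0.17 ± 0.08 did not pass (adjusted p = 0.114), and the WT response of 0.68 ± 0.09 did (adjusted p = 1.37e-05).

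Slc6a6 and Rhobtb1 were the exceptions, with a response in MKO muscle only by their own tests. Slc6a6 (chr6:91684053-91759066), the taurine transporter, had 15.9, 12.8, 13.0, 12 and 13.3 TPM in MKO fasted and 17.2, 17.7, 16.9, 18.1 and 19.5 TPM in MKO fed muscle, against 16.1, 16.3, 14.9 and 12.9 TPM in WT fasted and 14.3, 13.2, 13.3 and 13.4 TPM in WT fed muscle. All MKO fed libraries lay above all WT fed libraries, and fasted groups overlapped. It fell in MKO muscle by 0.42 on the log2 scale (standard error 0.09) and had 0.15 ± 0.10 in WT muscle (adjusted p = 0.251), with a contrast of −0.57 ± 0.13 that was called in 3 of the 4 fits (adjusted p = 0.189 as deposited and 0.0153 with scaling and without WT fasted replicate 4). Rhobtb1 (chr10:69151434-69291791), a protein that delivers substrates to cullin 3 ubiquitin ligases, had 2.73, 3.17, 3.06, 2.71 and 3.16 TPM in MKO fasted and 5.03, 5.01, 4.59, 5.23 and 4.76 TPM in MKO fed muscle. It had 3.42, 3.54, 3.49 and 3.57 TPM in WT fasted and 3.90, 3.29, 3.36 and 4.07 TPM in WT fed muscle. MKO libraries were above WT when fed and below WT when fasted, with no overlap in either state. The contrast was −0.66 ± 0.13 (adjusted p = 0.0857 as deposited), and it was called in 2 of the 4 fits.

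**Figure D4:**
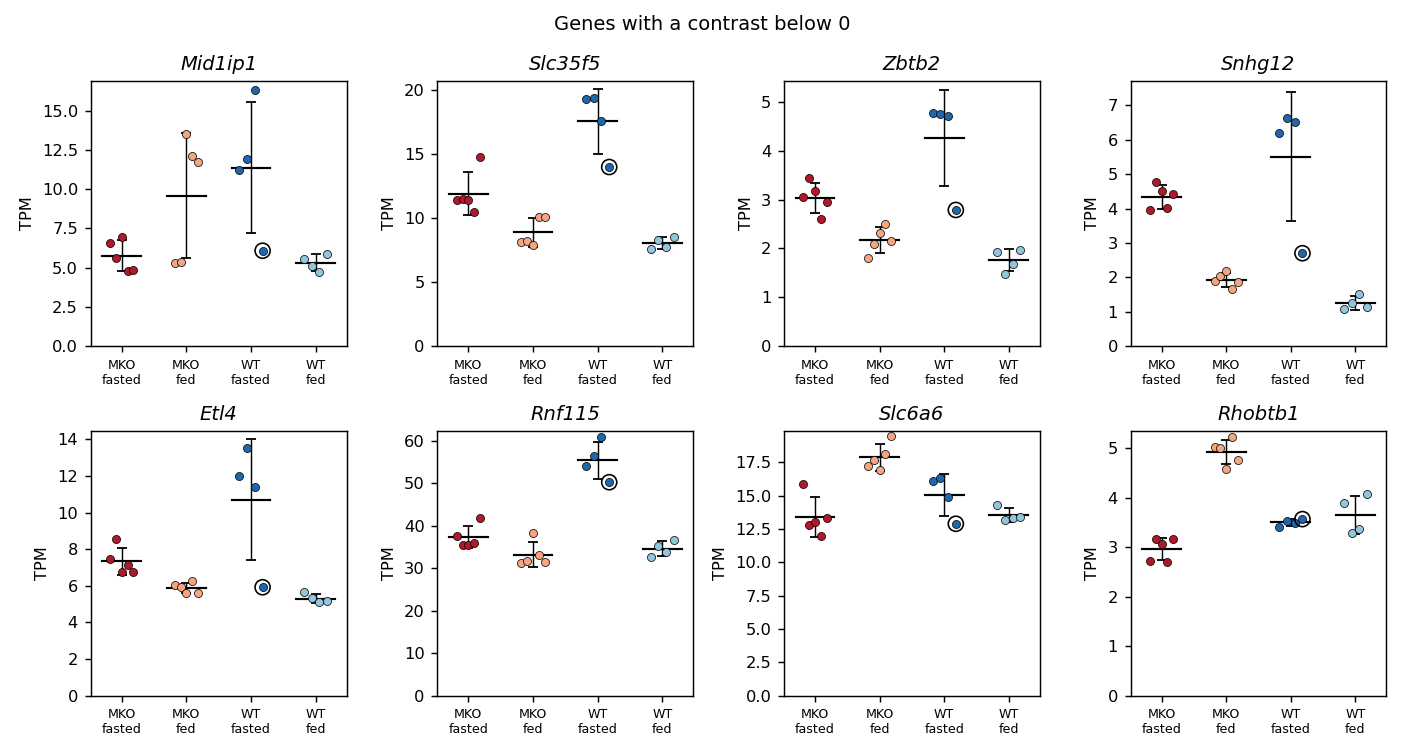
TPM per library of 8 genes with a negative contrast, by group, with points for libraries, a bar for the mean, an error bar of 1 SD (n = 5 in each MKO and 4 in each WT group) and an open ring around WT fasted replicate 4. In the first 6 panels WT fasted libraries other than replicate 4 lie above the fed WT libraries and above the mean of the MKO fasted group, and in Slc6a6 and Rhobtb1 the MKO fed libraries are the high ones.

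The pathway lists were then described by their median contrast beside that of all tested genes, which was 0.06 as deposited, 0.01 with scaling, −0.04 without WT fasted replicate 4 and 0.02 with both. A list was read as apart from the rest only where the 4 medians lay on 1 side of these values, and no test was made over a list. More lists met this rule than are detailed below. Neuromuscular junction genes (−0.06, −0.11, −0.20 and −0.14) and the integrated stress response (−0.03, −0.08, −0.18 and −0.12) lay below in all 4 fits. So did myostatin and BMP signaling, deubiquitinases, PGC-1 partners, heat shock, antioxidant, interferon and sterol synthesis genes. Sterol synthesis genes met the rule by small gaps only. They had 0.0514, 0.0021, −0.0439 and 0.0155 beside 0.0625, 0.0132, −0.0416 and 0.0178 for all tested genes. Translation factors and aminoacyl-tRNA synthetases lay above. Mitochondrial ribosome genes, which serve the translation of the mitochondrial genome, had medians of 0.17, 0.12, 0.14 and 0.20 over 75 genes, with 0 called in any of the 4 fits. By unadjusted p, 9 (12%) were higher and 0 lower as deposited, where 7.15% of all genes were higher. With scaling and without WT fasted replicate 4, 19 (25.3%) were higher and 0 lower, where 8.28% of all genes were higher. Their median response in that fit was −0.06 in MKO and −0.29 in WT muscle, and the smallest p values as deposited were those of Mrpl53 (0.64 ± 0.17, adjusted p = 0.244), Mrps15 (0.48 ± 0.13, adjusted p = 0.244) and Mrps16 (0.56 ± 0.16, adjusted p = 0.272).

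Cytosolic ribosomal protein genes had medians of 0.22, 0.17, 0.09 and 0.15 over 82 genes. By unadjusted p, 7.15% of all tested genes were higher and 1.96% lower as deposited. With scaling and without WT fasted replicate 4, 8.28% were higher and 5.57% lower. Of the cytosolic ribosomal protein genes, 19 (23.2%) were higher and 1 lower in the former fit and 22 (26.8%) higher and 1 lower in the latter. Rpl35 was the 1 member called in any of the 4 fits, with 115 to 129 TPM in MKO fasted and 101 to 116 TPM in MKO fed muscle, against 66.5 to 90.6 TPM in WT fasted and 95.1 to 102 TPM in WT fed muscle. All WT fasted libraries lay below all others in Rpl35. Nuclear complex I genes, of the first respiratory complex, had 0.08, 0.03, 0.08 and 0.14 over 36 genes. Of these, 19 lay above the median gene in both fits with all libraries and 30 in both without WT fasted replicate 4. Nuclear genes of complexes II to V changed side, with −0.03, −0.08, 0.03 and 0.09 over 43 genes. By unadjusted p, 5 (13.9%) and 7 (19.4%) of the complex I genes were higher and 0 lower in the fit as deposited and in the fit with scaling and without that library. Excitation and calcium handling genes had medians of 0.22, 0.17, 0.10 and 0.16 over 29 genes, with 5 (17.2%) and 4 (13.8%) higher and 0 lower in these fits and 0 called. Myogenic regulators and genes of cell cycle arrest, among them Maf, had 0.11, 0.06, 0.10 and 0.16 over 35 genes, with 8 (22.9%) higher and 2 (5.71%) lower in each of these fits. TCA cycle genes, which feed the respiratory chain, had medians of −0.08, −0.13, −0.09 and −0.03 over 18 genes and 0 past an unadjusted p of 0.05 in either fit.

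Collagen and extracellular matrix genes lay on the other side, with −0.16, −0.21, −0.26 and −0.20 over 39 genes, 0 higher and 8 (20.5%) lower by unadjusted p in both fits and 0 called. Of all tested genes 1.96% were lower as deposited and 5.57% with scaling and without WT fasted replicate 4. The smallest p values were those of Eln, elastin (−0.97 ± 0.24, adjusted p = 0.197), Col1a2, a chain of type I collagen (−0.90 ± 0.30, adjusted p = 0.366), Sparc, a collagen-binding matrix protein (−0.57 ± 0.19, adjusted p = 0.366), and Lox, which cross-links collagen (−0.90 ± 0.32, adjusted p = 0.41). Responses were −0.47 in MKO and 0.50 in WT muscle for Eln, −1.02 and −0.12 for Col1a2, −0.44 and 0.13 for Sparc, and 0.96 and 1.86 for Lox. Summed TPM of 6 fibroblast markers were 713 to 906 in MKO fasted and 576 to 872 in MKO fed muscle, against 511 to 743 in WT fasted and 399 to 668 in WT fed muscle. Those of 6 tendon markers were 62.6 to 101 in MKO fasted and 68.7 to 190 in MKO fed muscle, against 74.8 to 135 in WT fasted and 34.5 to 137 in WT fed muscle. Summed TPM of 6 smooth muscle and pericyte markers were 119 to 141 in MKO fasted and 168 to 184 in MKO fed muscle. In WT muscle they were 105 to 135 upon fasting and 118 to 153 when fed. The fibroblast markers include the collagen genes Col1a1, Col1a2 and Col3a1, so their sum is no separate measure of fibroblasts. The part of these cell types in the contrast of matrix genes was not tested.

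Fast fiber genes had medians of 0.37 and 0.32 with all libraries, but 0.10 and 0.16 without WT fasted replicate 4, over 19 genes. By unadjusted p, 7.15% of all tested genes were higher as deposited and 8.28% with scaling and without that library. Of the fast fiber genes 7 (36.8%) and 6 (31.6%) were higher in these fits, 0 were lower and 0 were called. Examples were Tmod4, a capping protein of thin filaments (0.47 ± 0.16, adjusted p = 0.367), Myl1, a fast myosin light chain (0.60 ± 0.22, adjusted p = 0.411), and Casq1, the calcium store protein of fast fibers (0.46 ± 0.18, adjusted p = 0.449). Slow fiber genes turned on 1 library, with medians of −0.01 and −0.06 with it and 0.47 and 0.53 without WT fasted replicate 4 over 11 genes, none of which passed an unadjusted p of 0.05 in the fit as deposited or in the fit with scaling and without it.

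**Figure D5:**
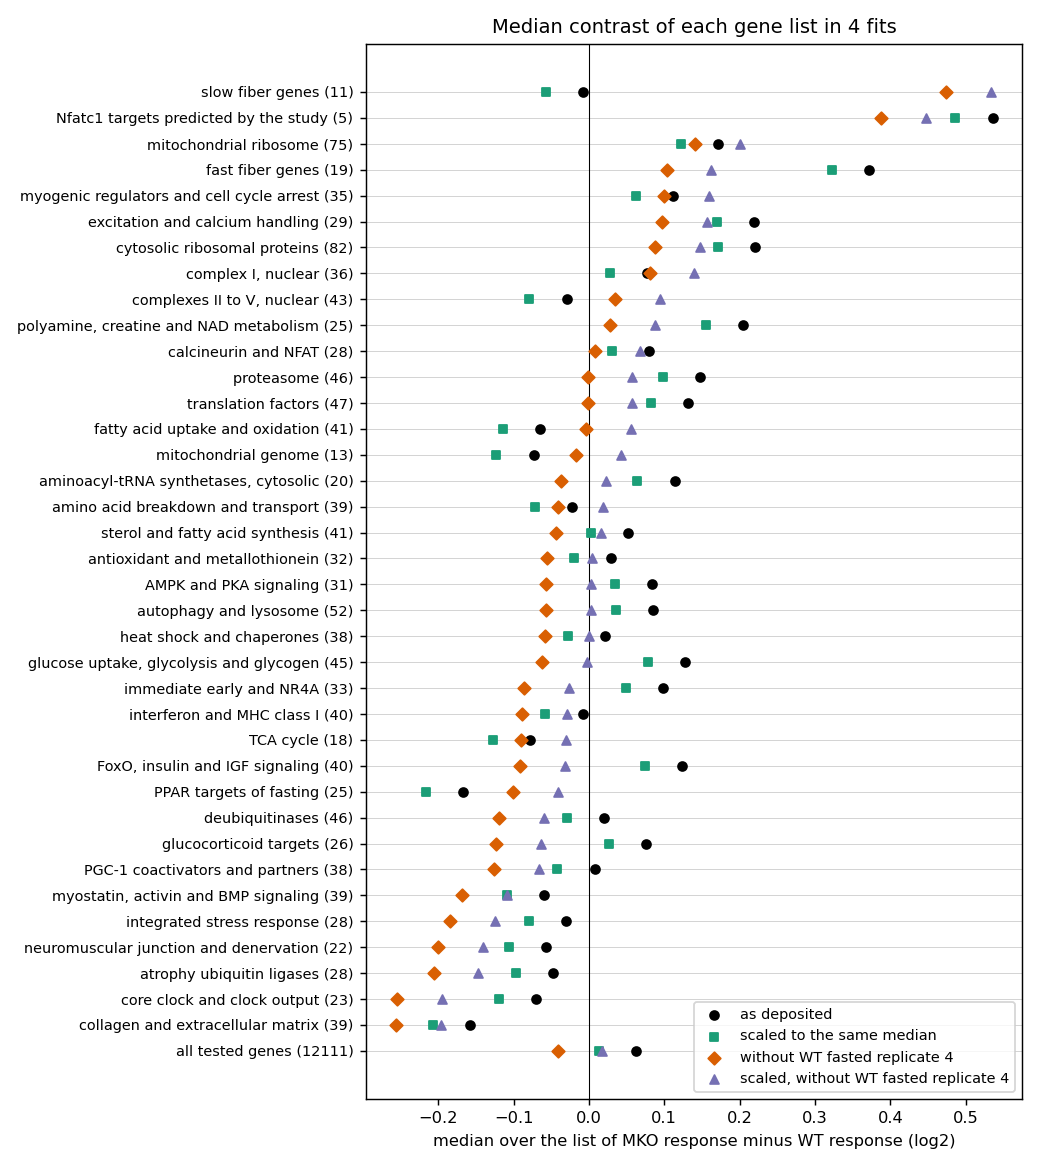
Median contrast (MKO response minus WT response, log2) of each of 37 gene lists and of all tested genes, with the number of genes tested in parentheses and 1 symbol for each of the 4 fits. Mitochondrial and cytosolic ribosome genes lie right of all tested genes and collagen and matrix genes left of them in all 4 fits, and the slow fiber symbols are split by the presence of WT fasted replicate 4.

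The study predicted a set of NFATc1 targets from these same libraries, so its direction is not independent evidence. By qPCR it reported all of them but March1 as raised in fasted MKO muscle. In its reporter assay, added PGC-1β lowered NFATc1 activity. NFATc1 is a transcription factor that calcineurin activates with nerve activity. Of 6 genes 5 were measured, with medians of 0.54, 0.49, 0.39 and 0.45 and 0 called. Mettl11b, a protein methyltransferase, had 7.42 to 9.83 TPM in MKO fasted and 15.8 to 22.4 TPM in MKO fed muscle, against 4.25 to 5.10 TPM in WT fasted and 14 to 15 TPM in WT fed muscle. Its contrast was 0.57 ± 0.16 (adjusted p = 0.256, limma). Nos1, neuronal nitric oxide synthase, had 0.54 ± 0.21 (adjusted p = 0.449), Pomk, a kinase for dystroglycan glycans, had 0.49 ± 0.21 (adjusted p = 0.512), and Ppargc1a, which encodes PGC-1α, had 0.68 ± 0.33 (adjusted p = 0.561). Sh3kbp1, a scaffold of receptor uptake, had 0.05 ± 0.23. In fed muscle, all MKO libraries already lay above all WT libraries for Mettl11b, Nos1, Pomk and Sh3kbp1. Mettl11b, Pomk and Sh3kbp1 fell upon fasting in each genotype. Nos1 and Ppargc1a fell in WT muscle, while their MKO responses of −0.30 ± 0.14 (adjusted p = 0.1) and −0.27 ± 0.22 (adjusted p = 0.362) did not pass, and the fasted and fed MKO libraries overlapped. The calcineurin and NFAT list as a whole lay at 0.08, 0.03, 0.01 and 0.07 over 28 genes.

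Among genes of the central programs of fasting, the contrasts of Trim63, Fbxo32 and Mstn passed the test in none of the 4 fits. Trim63 (MuRF1), a muscle ubiquitin ligase of atrophy, had 1010, 1590, 598, 735 and 768 TPM in MKO fasted and 57.7 to 70.6 TPM in MKO fed muscle, against 1240, 1180, 1420 and 343 TPM in WT fasted and 54.0 to 87.2 TPM in WT fed muscle. It rose in both, with 3.81 ± 0.30 in MKO and 3.79 ± 0.34 in WT, and its contrast of 0.02 ± 0.45 turned to between −0.51 and 0.23 over the other settings. Fbxo32 (atrogin-1), another such ligase, had 0.12 ± 0.34, and Mstn, the muscle growth inhibitor myostatin, had 0.21 ± 0.43, of which both also changed sign between settings. Mstn had 38.1 to 52.6 TPM in MKO fasted and 35.7 to 60.1 TPM in MKO fed muscle. It had 55.6, 67.2, 61.6 and, in replicate 4, 14.9 TPM in WT fasted and 40.5 to 57.7 TPM in WT fed muscle. The study reported lower Mstn in fasted MKO than in fasted WT muscle by RNA-seq and by qPCR. By qPCR it also reported a blunted rise of MuRF1, unlike that of MAFbx (Fbxo32). Lists of atrophy ubiquitin ligases (28 genes, 1 called) had −0.05, −0.10, −0.21 and −0.15, and core clock and clock output genes had −0.07, −0.12, −0.25 and −0.19 over 23 genes, both below the median gene in all 4 fits. By unadjusted p, 1 ligase (3.57%) was higher and 1 lower as deposited and 1 higher and 5 (17.9%) lower with scaling and without WT fasted replicate 4, and of the clock genes 0 were higher and 2 (8.7%) lower and 1 higher and 4 (17.4%) lower in these fits. Of all tested genes 7.15% were higher and 1.96% lower as deposited, and 8.28% were higher and 5.57% lower in the other fit. PPAR targets of fasting also lay below the median gene in all 4 fits, with −0.17, −0.22, −0.10 and −0.04 over 25 genes, although 0 were called and 0 and 1 were lower by unadjusted p in these fits. Their median responses were 1.18 in MKO and 1.34 in WT muscle as deposited. With scaling and without WT fasted replicate 4 they were 1.13 and 1.17. Proteasome genes lay above the median gene in all 4 fits (0.15, 0.10, −0.0018 and 0.06 over 46 genes). They and the lists of autophagy and lysosome (52 genes), glucocorticoid targets (26) and fatty acid oxidation (41) had 0 genes called in the 4 fits, and 0 to 3 of each list were higher and 0 to 1 lower by unadjusted p in the fits as deposited and with scaling and without WT fasted replicate 4. The shares that were higher were 6.52% in both fits for the proteasome and 5.77% in both for autophagy and lysosome. They were 11.5% and 3.85% for glucocorticoid targets and 0% and 7.32% for fatty acid oxidation. Median responses were 0.47 in MKO and 0.28 in WT muscle for the proteasome, 0.28 in MKO and 0.18 in WT muscle for autophagy and lysosome, 0.49 in MKO and 0.63 in WT muscle for fatty acid oxidation and 1.63 in MKO and 1.65 in WT muscle for glucocorticoid targets as deposited. These gaps depended on the fit. With scaling and without WT fasted replicate 4, MKO and WT had 0.42 and 0.33 for the proteasome and 0.22 and 0.21 for autophagy and lysosome. In that fit they had 0.43 and 0.41 for fatty acid oxidation and 1.58 and 1.71 for glucocorticoid targets.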

How the data were processed

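Polyadenylated RNA of skeletal muscle was sequenced by the authors as single reads. They deposited TPM per gene and library from the CLC Genomics Workbench and the genome build GRCm38 (mm10), and its settings, annotation and strand use in counting were not given in the sources used. Columns with the authors' own fold changes and FDR values for group comparisons were not used. TPM hold no read counts, so depth and counting intervals are unknown. Each TPM was tested as log2(TPM + 0.1) in limma 3.58.1 (R 4.3.3) with 4 group means and eBayes with trend, two-sided, with Benjamini-Hochberg adjustment over 12111 genes, and called at an adjusted p under 0.05. The model was tested on simulated data. The members and gene lists were chosen with earlier results of these data known, and 4 lists after the values were seen. Named genes were the 15 highest and 15 lowest contrasts among genes that averaged 1 TPM or more, were no predicted models and were called in at least 1 of 4 fits, those called in all 4, the members of each list with the lowest unadjusted p (4 at most), genes named by the study and those that decide a check. Others are said to be chosen after their values were seen. Alternatives were scaling, quantile normalization, TPM without mitochondrial genes, pseudocounts of 1 and 0.01, no filter or 2 TPM, library weights, robust eBayes, a replicate block, an adjusted p under 0.1 and each library left out. Coordinates came from GENCODE for GRCm38, which matched 46488 of 46983 identifiers, and promoter windows from RefSeq, which matched 35 of 46 genes looked up. Some items are not reported here. No pair among 153 pairs of libraries had identical values.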

Additional observations from a re-analysis of the deposited data

Results flagged for a closer look

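The responses of the genotypes differed by the test of the contrast for 4 genes as deposited, Maf (1.31), Igfals (1.62), Shisa2 (1.12) and Alg2 (0.99 on the log2 scale). Among 17 genes whose libraries were compared in 4 groups each, 7 of 68 groups held a library far from the rest of its group by Dixon's test, where chance gives about 1 in 20. They were WT fasted replicate 4 with low Ccdc50 (10.2 TPM), Zbtb2 (2.79 TPM) and Snhg12 (2.7 TPM), WT fed replicate 1 with low Shisa2 (28.4 TPM), WT fed replicate 2 with high Plcd4 (34.6 TPM), MKO fasted replicate 5 with high Slc35f5 (14.8 TPM) and MKO fed replicate 3 with high Rnf115 (38.3 TPM). WT fasted replicate 4 thus accounted for 3 of the 7.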

How the results depend on the processing

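The number of genes called for the contrast, 4 (4 higher and 0 lower) as deposited, was 14 with scaling (11 and 3), 26 without WT fasted replicate 4 (8 and 18), 38 with both (21 and 17), 8 after quantile normalization (6 and 2), 10 with TPM recomputed without mitochondrial genes (7 and 3), 73 with library weights (43 and 30), 44 with weights and scaling (28 and 16), 7 at an adjusted p under 0.1 (1 lower), and 0 (0 and 0) without a filter (smallest adjusted p 0.0557, with 1559 genes at an unadjusted p under 0.05). Leaving out 1 library at a time gave 0 to 26 called, 0 to 10 higher and 0 to 18 lower, with 10 called without WT fasted replicate 3. With scaling and without WT fasted replicate 4, the 4 genes called as deposited remained among the 38. The replicate block left 0 called (0 higher, 1129 at an unadjusted p under 0.05, smallest adjusted p 0.065). The replicate numbers did not pair the samples, since same-numbered libraries of 2 groups deviated together with correlations of −0.20 to 0.15, over 0.1 in 3 of 25. List medians moved beyond the spread between libraries for the mitochondrial genome (0.0422 with scaling and without WT fasted replicate 4), for autophagy and lysosome (−0.0572 without it) and for polyamine, creatine and NAD metabolism (0.0276 without it). Contrasts that changed sign were all of genes not called. Trim63 had −0.0261 with scaling, −0.45 without WT fasted replicate 4, −0.39 with both, −0.21 by quantiles, −0.13 without mitochondrial genes, −0.51 with weights and −0.41 with weights and scaling, and −0.45 to 0.23 with 1 library left out. Fbxo32 had −0.23 without WT fasted replicate 4, −0.17 with scaling in addition, −0.15 by quantiles, −0.0391 without mitochondrial genes, −0.22 with weights and −0.12 with weights and scaling, and −0.23 to 0.30 with 1 library left out. Mstn had −0.30 without WT fasted replicate 4, −0.24 with scaling in addition, −0.32 with weights and −0.16 with weights and scaling, and −0.30 to 0.42 with 1 library left out. Sh3kbp1 had −0.0016 with scaling, −0.0368 by quantiles, −0.0896 without mitochondrial genes and −0.0488 with a pseudocount of 1, and −0.0448 to 0.16 with 1 library left out. The cause was not tested for any of these changes. The contrast joins the errors of 4 groups of 4 or 5 libraries, and read depth is unknown.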

Other observations

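Genes of polyamine, creatine and NAD metabolism had median contrasts of 0.20, 0.16, 0.03 and 0.09 in the 4 fits over 25 genes, with 4 (16%) higher and 1 (4%) lower by unadjusted p as deposited and 0 called. Of all tested genes 7.15% were higher and 1.96% lower by this measure. Amd1, which makes the decarboxylated donor for polyamine synthesis, changed by −1.09 in MKO and −2.01 in WT muscle, with a contrast of 0.92 ± 0.37 (adjusted p = 0.466, limma). Its relative Amd2 had 0.93 ± 0.38 (adjusted p = 0.471), and reads may have been split between these similar genes. Gamt, the last enzyme of creatine synthesis, had 0.66 ± 0.26 (adjusted p = 0.455), and Gatm, the first, had −0.74 ± 0.33 (adjusted p = 0.513), so the 2 steps lay on opposite sides.

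Among antioxidant genes, Hmox1, which degrades heme, had a contrast of −0.72 ± 0.34 (adjusted p = 0.536) and Slc30a1, a zinc exporter, −0.56 ± 0.17 (adjusted p = 0.327), both with the larger response in WT muscle. In the clock list, Per2 changed by −0.67 in MKO and 0.19 in WT muscle (contrast −0.85 ± 0.38, adjusted p = 0.513), and Bhlhe40 had −0.42 ± 0.16 (adjusted p = 0.45). None of these passed. For predicted gene models, 6430571L13Rik and 4930430F08Rik had contrasts of 1.22 and 0.74 as deposited and were called in 1 and 2 of the 4 fits.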
